A study of Mus musculus with 8 samples.

Results

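Of the 306466 regions obtained by merging the peaks of all 8 Flag CUT&Tag libraries of this series, 8490 (2.77%) held a peak of Sox2 and a peak of Nr5a2 and no peak of Nanog or Oct4. CUT&Tag uses an antibody, here against the Flag tag of the delivered factor, to bring the transposase Tn5 to bound chromatin. The regions were chosen by peak calls: peaks that shared at least 1 bp were merged, and a region counted when at least 1 of the Sox2 and Sox2BiD libraries and at least 1 of the Nr5a2 and Nr5a2BiD libraries had a peak in it and none of the 4 Nanog and Oct4 libraries did. The number also depended on the libraries, with 3002 regions left without the Sox2BiD library and 5553 without the native Nr5a2 library. The presence of these peaks is therefore what defines the regions and not a result.

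The cells were mouse embryonic fibroblasts (MEFs), taken on day 3 of reprogramming. Per the study's methods they came from E13.5 embryos of OG2 males, which carry an Oct4-GFP reporter, crossed to 129 females, and the factors were delivered with pMXs retroviruses. The libraries are titled Sox2, Sox2BiD, Nr5a2, Nr5a2BiD, Nanog, NanogBiD, Oct4 and Oct4BiD, with 1 library each, and BiD names the BRG1-interacting domain of SS18, a subunit of the BAF chromatin remodelling complex, fused to the N-terminus of the factor. Whether other factors were co-delivered is not in the titles, and a delivered factor is driven by a viral promoter, so binding refers to an exogenous, tagged protein. With 1 library per group no comparison could be tested over samples, and all intervals below are 95% intervals of counting error over regions.

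Sox2 is an HMG-box protein that bends DNA at words of the type CATTGTT and acts in pluripotent and neural cells. Nr5a2, also called LRH-1, is a nuclear receptor that binds as a monomer to an extended half-site of the type CAAGGTCA, controls bile acid, cholesterol and steroid genes in liver, gut and ovary, and can take the place of Oct4 in reprogramming. Sox2 often binds beside Oct4 in pluripotent cells. The regions described here are those with Sox2 and Nr5a2 peaks and without Oct4 or Nanog peaks. Sox2 and Nr5a2 peaks come from separate libraries, so a shared region does not show that both proteins were bound together.

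Motif words were searched on both strands within 50 bp of a summit, the highest point of a peak. The SOX word was CATTGTT, the NR5A words were CAAGGTCA and CAAGGCCA, and the word pair of AP-1, the FOS and JUN dimers that are abundant in fibroblasts, was TGACTCA and TGAGTCA. The first 6 sequences show how a SOX and an NR5A word lay in these regions, all on the plus strand of mm10, with the words in capitals. The first 3 are the regions among the 12 strongest in which both words, CTTTGTT counting as SOX, could be shown in at most 300 bp, and the other 3 are the strongest regions with each word within 50 bp of its own summit at summit distances of 0 to 50, 51 to 100 and 101 to 250 bp, a choice made after values were seen. A word on the minus strand appears as its reverse complement, so TGGCCTTG is an NR5A word and AACAATG and AACAAAG are SOX words.
Brinp3, chr1:147054836-147054937, intergenic: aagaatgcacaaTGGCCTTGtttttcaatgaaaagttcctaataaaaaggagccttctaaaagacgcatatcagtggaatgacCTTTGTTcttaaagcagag
Pinx1, chr14:63893492-63893676, intron of Pinx1: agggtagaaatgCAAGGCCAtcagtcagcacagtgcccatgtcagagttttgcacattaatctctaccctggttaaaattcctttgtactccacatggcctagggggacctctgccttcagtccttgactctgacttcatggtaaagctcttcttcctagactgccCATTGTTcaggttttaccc
A2m, chr6:121560965-121561044, intergenic: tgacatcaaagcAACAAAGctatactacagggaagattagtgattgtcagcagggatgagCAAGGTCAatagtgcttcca
Igfbp2, chr1:72823978-72824014, intergenic: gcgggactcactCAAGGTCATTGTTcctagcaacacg
Ppm1f, chr16:16911954-16912032, intron of Ppm1f: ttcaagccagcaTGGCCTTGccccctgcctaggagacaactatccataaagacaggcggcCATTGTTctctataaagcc
Atp2b1, chr10:98668981-98669153, intron of Gm5427: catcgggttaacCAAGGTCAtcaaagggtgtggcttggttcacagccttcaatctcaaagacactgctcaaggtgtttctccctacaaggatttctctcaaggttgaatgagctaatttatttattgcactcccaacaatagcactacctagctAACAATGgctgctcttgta

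The names are those of the nearest protein-coding gene by start site. In the Igfbp2 sequence, which lies 0.483 kb from the start of this gene for an insulin-like growth factor binding protein, the NR5A and SOX words shared 2 bases, and the Sox2 and Nr5a2 summits were 1 bp apart, 21 and 22 bp from the SOX word. In the Ppm1f sequence 40 bp separated the words, and in the Atp2b1 sequence 134 bp did. The Atp2b1 region lay 245 kb from that gene's start, and the Brinp3 region 560 kb from the start of Brinp3. In the Brinp3 sequence the NR5A word lay 8 bp from the Sox2 summit and the SOX word 8 bp from the Nr5a2 summit, each nearer to the summit of the other factor.

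The second set shows regions where Sox2 and Nr5a2 summits coincided over AP-1 words, the strongest 2 with an AP-1 word within 50 bp of both summits and the summits at most 50 bp apart. They are given because AP-1 words were the most frequent of the 3 kinds at coincident summits, as described below. CTTTGTT was not counted as SOX there.
Tcim, chr8:24204099-24204143, intergenic: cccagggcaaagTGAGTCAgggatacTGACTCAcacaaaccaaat
Slc10a2, chr8:5133881-5133911, intergenic: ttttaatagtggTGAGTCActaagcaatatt

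The Tcim region lay 235 kb from that gene's start. Its summits of Sox2 and Nr5a2 were 33 bp apart, and the 2 AP-1 words were separated by 7 bp. Peak scores, which are 10 times the negative log10 of the peak caller's p-value, were 448 in Sox2, 634 in Sox2BiD, 378 in Nr5a2 and 437 in Nr5a2BiD. In the Slc10a2 region, near the gene of the ileal bile acid transporter, the summits were 4 bp apart and the scores were 487, 407, 281 and 280 in the same order. All 4 libraries thus had a peak in both regions.

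The forms of the factors contributed unequally. A Sox2BiD peak was present in 8184 of the 8490 regions (96.4%) and a native Sox2 peak in 3104 (36.6%). A native Nr5a2 peak was present in 7769 (91.5%) and an Nr5a2BiD peak in 5677 (66.9%). The BiD library was thus the broader one for Sox2 and the native library the broader one for Nr5a2, as in the peak lists themselves, which held 58162 peaks for Sox2, 120594 for Sox2BiD, 108030 for Nr5a2 and 76217 for Nr5a2BiD.

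Sox2BiD without native Sox2 was found in 5386 regions, 63.4% of the 8490 (62.4 to 64.5), against a background of 54.6% of all 125958 regions with any Sox2 peak. Native Sox2 without Sox2BiD was found in 306 regions, 3.60% (3.22 to 4.02), against a background of 6.16%. Regions with both Sox2 libraries made up 33.0%. Compared with the other regions that had a Sox2 peak, the share with Sox2BiD alone was 9.51 percentage points higher (8.44 to 10.6). Those other regions include ones with Nanog or Oct4 peaks. Of the 64594 regions on placed chromosomes with peaks of Sox2 libraries only, 38895 had Sox2BiD alone, 5406 native Sox2 alone and 20293 both. The number of called peaks differed between the libraries, and when each library was cut to its 50000 top-scoring peaks the share with Sox2BiD alone was 35.5% and that with native Sox2 alone 19.5%.

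Native Nr5a2 without Nr5a2BiD was found in 2813 regions, 33.1% (32.1 to 34.1), against a background of 35.7% of all 116274 regions with any Nr5a2 peak. Nr5a2BiD without native Nr5a2 was found in 721 regions, 8.49% (7.91 to 9.11), against a background of 8.84%. Compared with the other regions that had an Nr5a2 peak, the differences were -2.76 percentage points (-3.79 to -1.71) for native Nr5a2 alone, -0.370 points (-0.969 to 0.265) for Nr5a2BiD alone and 3.13 points (2.03 to 4.21) for both libraries, which were found in 58.4% of the regions. Of the 66841 regions on placed chromosomes with peaks of Nr5a2 libraries only, 30509 had native Nr5a2 alone, 5523 Nr5a2BiD alone and 30809 both. With 50000 peaks per library the order of the 2 forms in the regions of Sox2 and Nr5a2 turned, with 18.3% native alone and 23.3% BiD alone.

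The most frequent of the 9 combinations was Sox2BiD alone with both Nr5a2 libraries, 3053 regions (36.0%). Sox2BiD alone with native Nr5a2 alone followed with 1939 regions (22.8%), and 1715 regions (20.2%) had a peak in all 4 libraries. The rarest were native Sox2 alone with Nr5a2BiD alone, 40 regions, and with native Nr5a2 alone, 78 regions. The 2 BiD libraries without either native library shared 394 regions (4.64%).

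**Figure D1:**
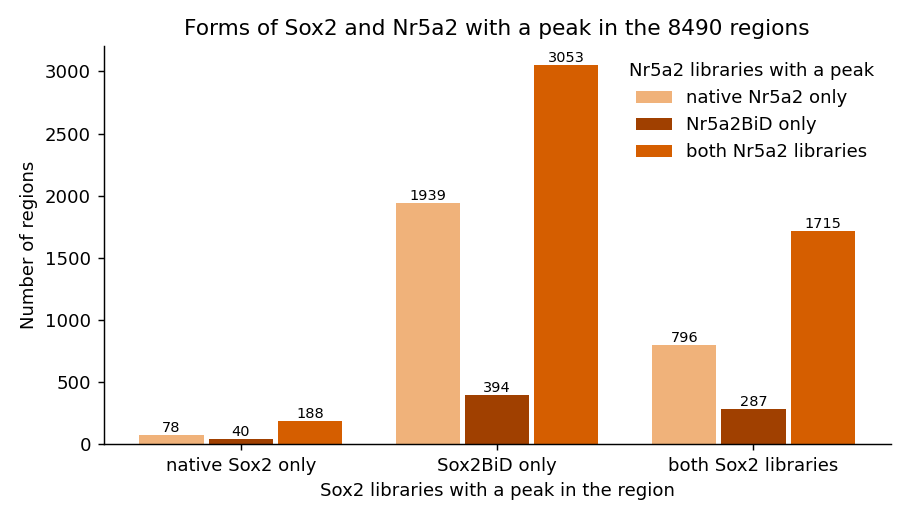
Number of the 8490 regions of Sox2 and Nr5a2 (vertical axis) by the Sox2 libraries with a peak (horizontal axis) and the Nr5a2 libraries with a peak (bar colour), 1 library per form. The 3 bars for Sox2BiD alone hold 1939, 394 and 3053 regions, and the 3 bars for native Sox2 alone hold 78, 40 and 188.

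Peaks in these regions were of ordinary strength for their libraries. Their median within-library score percentile was 49.4 in Sox2, 49.4 in Sox2BiD, 51.4 in Nr5a2 and 49.7 in Nr5a2BiD. Median scores were 129, 148, 129 and 116 in the same order, with highest scores of 1237, 1269, 1193 and 981. Where both Sox2 libraries had a peak, the Sox2BiD score was the higher one in 2297 of 2798 regions (82.1%), with medians of 301 and 139. Where both Nr5a2 libraries had a peak, the Nr5a2BiD score was the higher one in 1473 of 4956 regions (29.7%), with medians of 131 and 186. Scores are not scaled for sequencing depth, so these medians describe the libraries as called.

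Across the 8490 regions, the best Sox2 score and the best Nr5a2 score were nearly unrelated (Spearman's rho = 0.020). The scores of native Sox2 and Sox2BiD ran together over the 2798 regions that had both (rho = 0.51), as did those of native Nr5a2 and Nr5a2BiD over 4956 (rho = 0.65). These are descriptions across regions of 2 to 4 libraries, and the regions are not replicates.

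The rule cuts through a continuum of scores. In 1556 regions (18.3%) the best Sox2 or the best Nr5a2 peak scored under 60, just above the caller's threshold of 50. On the other side, 3670 regions with Sox2 and Nr5a2 peaks were kept out by a peak in only 1 of the 4 Nanog and Oct4 libraries, and in 687 of these the peak scored under 60. The nearest Nanog or Oct4 peak lay at a median of 3.11 kb from the edge of a region and within 1 kb for 1805 regions (21.3%). In all, 31364 regions held Sox2 and Nr5a2 peaks, and the 8490 without the other 2 factors were 27.1% of them. The corresponding shares were 33.5% for Sox2 with Nanog, 24.4% for Sox2 with Oct4, 23.4% for Nr5a2 with Nanog and 22.4% for Nr5a2 with Oct4.

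Sox2 and Nr5a2 summits were usually apart. The median distance between the best Sox2 and the best Nr5a2 summit was 255 bp, with quartiles of 91 and 538 bp, in regions of a median width of 1229 bp. In 2287 regions (26.9%, 26.0 to 27.9) the summits were within 100 bp. For comparison, the 2 libraries of the same factor had summits within 100 bp in 77.6% of the regions with both Sox2 forms and 83.2% of those with both Nr5a2 forms, at medians of 40 and 33 bp. The share of 26.9% rests on merging whole peaks: when summits extended by 100 bp were merged in their place, which itself requires close summits, it was 59.7% of 5595 regions.

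The Sox2 summit lay inside the best Nr5a2 peak in 5930 regions (69.8%), and the Nr5a2 summit inside the best Sox2 peak in 5961 (70.2%). In the 22874 regions that also had Nanog or Oct4 peaks, Sox2 and Nr5a2 summits were within 100 bp in 34.5%, and the regions without them differed by -7.52 percentage points (-8.64 to -6.38), although those regions were wider, with a median of 1949 bp. The sets within them differed: the share was 30.7% (29.6 to 31.8) with Nanog and no Oct4 peaks and 37.9% (37.1 to 38.7) with both, but 23.2% (21.4 to 25.1), below that of the regions of Sox2 and Nr5a2 alone, with Oct4 and no Nanog peaks. Among factor pairs without the other 2 factors, the share of regions with summits within 100 bp was 49.3% for Sox2 with Nanog, 41.3% for Nanog with Oct4, 36.0% for Nr5a2 with Nanog, 27.7% for Sox2 with Oct4 and 19.7% for Nr5a2 with Oct4. The value of 26.9% for Sox2 with Nr5a2 stands near that of Sox2 with Oct4.

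**Figure D2:**
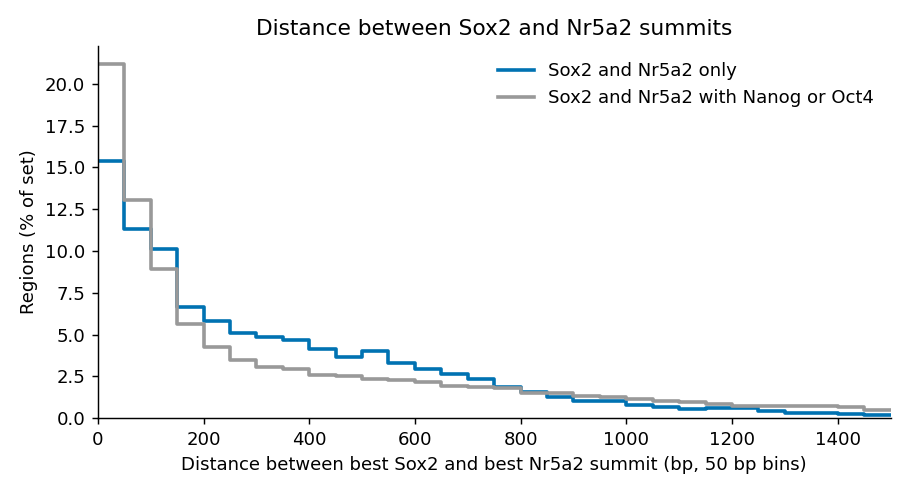
Distance in bp between the best Sox2 and the best Nr5a2 summit (horizontal axis, 50 bp bins up to 1500 bp) against the percent of regions of each set (vertical axis), for the 8490 regions without and the 22874 regions with Nanog or Oct4 peaks. The medians are 255 and 211 bp, and the first bins hold a larger share of the regions with Nanog or Oct4.

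Summit distance varied with the form of Nr5a2. Where Nr5a2 was present as Nr5a2BiD alone, 278 of 721 regions (38.6%, 35.0 to 42.2) had summits within 100 bp, against 619 of 2813 (22.0%, 20.5 to 23.6) where it was native alone, a difference of 16.6 percentage points (12.7 to 20.5). For Sox2 the corresponding shares were 27.3% for Sox2BiD alone and 31.0% (25.9 to 36.6) for native alone, with overlapping intervals. The Nr5a2 peaks of the 2 groups also differed in strength, with median scores of 69.6 for Nr5a2BiD alone and 81.7 for native alone, and the part of strength in the distances was not tested.

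Each factor's own word was frequent at its own summit. The SOX word lay within 50 bp of the Sox2 summit in 787 of 8488 regions on placed chromosomes (9.27%, 8.66 to 9.91), against 1.68% in equally wide flanks with centres 500 bp away, a ratio of 5.50 (4.82 to 6.29). The NR5A words lay at the Nr5a2 summit in 1295 regions (15.3%, 14.5 to 16.0), against 1.83% in the flanks, a ratio of 8.33 (7.38 to 9.40). Over the highest summits of all union regions, 4.10% held the SOX word and 5.58% an NR5A word. Another SOX word, CTTTGTT, was found at 13.9% of the Sox2 summits (5.42% over all union regions).

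The shares of the SOX word CATTGTT and of the NR5A words were lower than where each factor was found alone. In the 64602 regions of Sox2 alone the SOX word was at 10.8% of the summits, and the regions of Sox2 and Nr5a2 differed by -1.55 percentage points (-2.19 to -0.870). For CTTTGTT the difference was -0.647 points (-1.42 to 0.151), which its interval did not separate from equal shares. In the 66850 regions of Nr5a2 alone the NR5A words were at 18.8%, a difference of -3.55 points (-4.36 to -2.71). The shares were higher than in the regions with Nanog or Oct4, where 5.60% of Sox2 summits held the SOX word and 8.50% of Nr5a2 summits an NR5A word, with differences of 3.67 (3.00 to 4.37) and 6.76 points (5.92 to 7.62).

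Few regions held both words at their summits. In 126 regions (1.48%) the SOX word was at the Sox2 summit and an NR5A word at the Nr5a2 summit, in 661 only the SOX word and in 1169 only an NR5A word. The other 6532 (77.0%) had neither CATTGTT nor an NR5A word there. Anywhere within the region, both words occurred in 1132 (13.3%), at a median gap of 319 bp, and in 93 the gap was at most 50 bp. With CTTTGTT counted as SOX too, 1905 regions (22.4%) had a SOX word at the Sox2 summit. By that count 312 regions (3.68%) also had an NR5A word at the Nr5a2 summit.

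**Figure D3:**
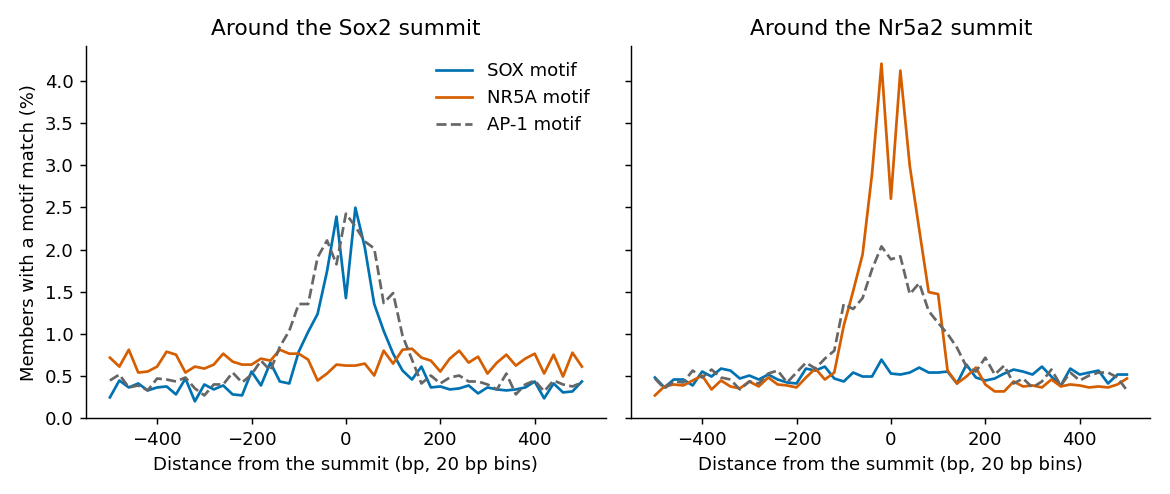
Percent of the 8488 regions with a motif match (vertical axis) in 20 bp bins around the best Sox2 summit (left) and the best Nr5a2 summit (right), with distance from the summit in bp on the horizontal axis. SOX words gather around the Sox2 summit and NR5A words around the Nr5a2 summit, AP-1 words gather around both, and SOX and NR5A words each have a lower share in the central bin (1.43% and 2.60%) than 20 bp to either side.

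The word of the other factor, called the partner word here without a claim of joint binding, was found more often than in regions of 1 factor. NR5A words lay at the Sox2 summit in 2.84% of the regions and in 0.777% of the regions of Sox2 alone, a difference of 2.06 percentage points (1.72 to 2.44). The SOX word lay at the Nr5a2 summit in 2.54% and in 1.21% of the regions of Nr5a2 alone, a difference of 1.33 points (1.01 to 1.70). Both shares were close to those in the flanks of the same regions, 2.91% for NR5A words beside the Sox2 summit (ratio 0.976, 0.838 to 1.14) and 2.25% for the SOX word beside the Nr5a2 summit (ratio 1.13, 0.959 to 1.33), and neither ratio was separated from equal shares by its interval. By summit distance the shares were highest in regions with close summits, where the windows around both summits overlap. With summits at most 50 bp apart NR5A words were at 8.31% of the Sox2 summits, and with summits over 500 bp apart at 0.922% (0.579 to 1.39), an interval that includes the value of Sox2 alone. The SOX word was at 6.27% and 1.17% (0.781 to 1.69) of the Nr5a2 summits in the same sets, and the second interval includes the value of Nr5a2 alone.

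AP-1 words were at 9.96% of the Sox2 summits and 8.49% of the Nr5a2 summits, 5.17 times (4.56 to 5.86) and 4.33 times (3.81 to 4.92) the flanks. They were more frequent than at the summits of Sox2 alone (7.23%, a difference of 2.73 points, 2.08 to 3.41) and of Nr5a2 alone (5.26%, a difference of 3.24 points, 2.64 to 3.87). Over the highest summits of all union regions the share was 6.39%. At the Sox2 summit, AP-1 words differed little from the regions with Nanog or Oct4 (9.45%), with an interval of the difference of -0.225 to 1.26 points.

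AP-1 words and the factors' own words moved in opposite directions with summit distance, in distance bins set after values were seen. With summits at most 50 bp apart (1325 regions), AP-1 words were at 16.9% (14.9 to 19.0) of the Sox2 summits and 17.0% (15.0 to 19.1) of the Nr5a2 summits. With summits over 500 bp apart (2385 regions) they were at 7.04% (6.05 to 8.15) and 5.32% (4.46 to 6.30), lower by 9.87 and 11.7 percentage points. NR5A words at the Nr5a2 summit went the other way, from 9.59% (8.06 to 11.3) to 18.3% (16.7 to 19.9), and the SOX word at the Sox2 summit from 7.63% (6.26 to 9.19) to 10.4% (9.16 to 11.6).

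The 3 bins in between lay in order for AP-1 at the Sox2 summit, with 13.7%, 9.28% and 7.54%, and for NR5A at the Nr5a2 summit, with 11.7%, 14.7% and 17.8%. AP-1 at the Nr5a2 summit, with 12.8%, 7.97% and 4.92%, had its lowest share in the bin before the last, and the SOX word at the Sox2 summit, with 8.84%, 8.23% and 10.3%, was not in order. Neighbouring bins had overlapping intervals in part. In the regions with Nanog or Oct4, AP-1 words were at 11.9% (11.0 to 12.9) of the Sox2 summits with summits at most 50 bp apart and at 8.26% (7.64 to 8.91) over 500 bp apart. Words of TEAD, CATTCC, and of RUNX, AACCACA, both families of factors active in fibroblasts, showed smaller excess over the flanks, with 7.76% (flanks 5.64%) and 3.58% (flanks 2.39%) at the Sox2 summit, and they were at 9.25% and 4.28% of the highest summits of all union regions. The octamer ATGCAAAT bound by Oct4 was at 0.648% of the Sox2 summits (flanks 0.418%, ratio 1.55, 1.09 to 2.20). At the Nr5a2 summits it was at 0.342% (flanks 0.489%, ratio 0.699, 0.458 to 1.07), and over all union regions at 2.92%. The NANOG word GCCATTA was at 0.978% of the Sox2 summits (flanks 0.748%) and 0.766% of the Nr5a2 summits (flanks 0.783%), and at 1.25% over all union regions. The rule removed regions with Oct4 and Nanog peaks, which bears on these last shares.

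**Figure D4:**
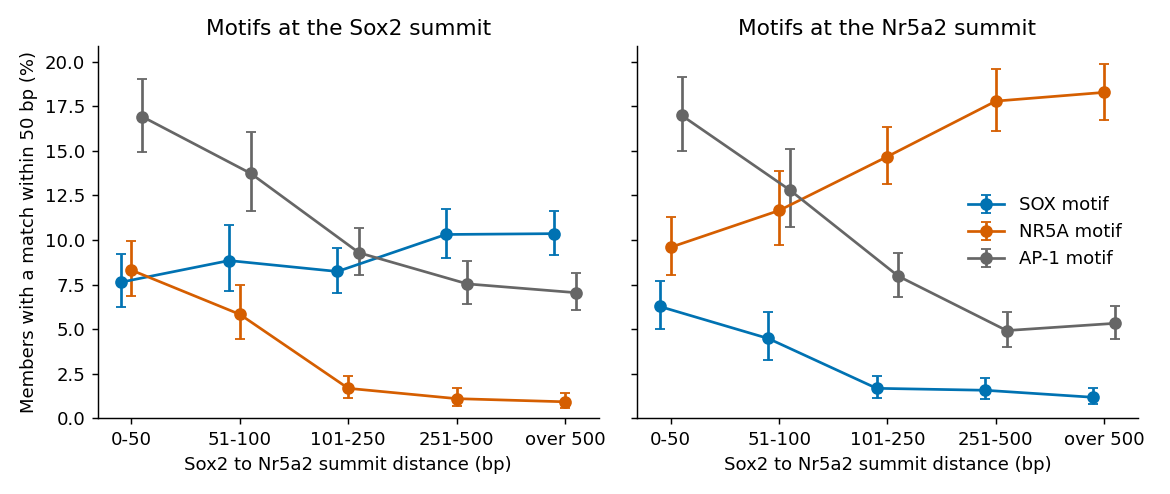
Percent of regions with a motif match within 50 bp of the Sox2 summit (left) and of the Nr5a2 summit (right), by the distance between the 2 summits in bp, with exact 95% intervals of counting error. AP-1 words go from 16.9% to 7.04% at the Sox2 summit and from 17.0% to 5.32% at the Nr5a2 summit, and NR5A words at the Nr5a2 summit go from 9.59% to 18.3%.

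The forms differed in their words. Where Sox2 was present as Sox2BiD alone the SOX word was at 9.75% (8.97 to 10.6) of the Sox2 summits, and where both Sox2 libraries had a peak at 9.15% (8.11 to 10.3). Where Sox2 was native alone it was at 6 of 305 summits (1.97%, 0.725 to 4.23), close to the flanks of the same regions. Sox2BiD alone exceeded native Sox2 alone by 7.78 percentage points (5.40 to 9.13). The native-only peaks were also the weakest, with a median score of 83.7 against 110 for Sox2BiD alone and 314 for both. The same order was seen in the regions of Sox2 alone, with 3.92% for native alone and 12.5% for Sox2BiD alone.

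For Nr5a2 the native form had the higher share. NR5A words were at 16.6% (15.3 to 18.1) of the summits where Nr5a2 was native alone, at 15.4% where both libraries had a peak and at 8.75% (6.79 to 11.1) where it was Nr5a2BiD alone. The difference between native alone and Nr5a2BiD alone was 7.89 points (5.24 to 10.2). AP-1 words went the other way at these summits, with 6.01% (5.16 to 6.95) for native alone and 10.1% (8.03 to 12.6) for Nr5a2BiD alone. In both factors the form with fewer peaks of its own thus had the lower share of its word, and form and strength cannot be told apart with 1 library each. By the read totals in the study's reporting summary, these libraries with fewer peaks, Sox2 and Nr5a2BiD, were the more deeply sequenced of their pairs.

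Most regions were far from gene starts, and more lay within genes than between them. Their highest summit lay within 2 kb of an annotated transcript start in 1242 regions (14.6%, 13.9 to 15.4), in introns in 53.2%, between genes in 40.2% and in coding exons in 1.26%. Within 500 bp of a transcript start the share was 5.20%, and within 2 kb of a protein-coding transcript start 9.57%. Only 312 regions (3.68%) were within 2 kb of the start of a protein-coding gene as a whole, and the median distance to such a start was 38.1 kb. Regions of Sox2 alone were at transcript starts in 10.1%, which is 4.50 percentage points lower (3.72 to 5.30 points), and regions of Nr5a2 alone in 15.5%, which these regions missed by a difference of -0.852 points (-1.64 to -0.0374). Regions with Nanog or Oct4 were at transcript starts in 41.7%.

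Base composition lay between those of the single factors. Mean GC content within 50 bp of the highest summit was 46.8%, beside 41.2% in regions of Sox2 alone and 49.7% in regions of Nr5a2 alone. Repeat-masked sequence was at 13.1% (12.4 to 13.9) of the summits, beside 16.0% and 15.2%. Sox2BiD-alone regions were at transcript starts in 16.4% (15.5 to 17.5) and regions with both Sox2 libraries in 11.6% (10.4 to 12.8). The regions were spread over the autosomes at 2.66 per Mb on chromosome 14 to 4.19 per Mb on chromosome 11, and chromosome X had 0.959 per Mb. Relative to the union, X also had the lowest share of the chromosomes with any such region, 1.90% of its 8646 union regions.

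The strength of a region was taken as the lower of the score percentiles of its best Sox2 and best Nr5a2 peak within their libraries. The 12 strongest, with percentiles of 97.1 to 99.0, included 11 nearest to Pudp, Astn1, Tex13c3, Tmem131, Camk1d, Zbtb20, Brinp3, Pinx1, Xrcc4, Msmo1 and A2m. Of the 12, 11 had peaks in all 4 libraries, 7 had summits within 100 bp, 7 were intergenic and 4 lay in introns. Sox2BiD scored higher than native Sox2 in the 11 regions that had both, and Nr5a2BiD higher than native Nr5a2 in 7 of the 12. Somewhere in the region, 4 held the SOX word, 6 an NR5A word and 7 an AP-1 word.

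The region nearest to Msmo1, a methylsterol oxidase of cholesterol synthesis, lay within the gene (chr8:64725090-64727168), 7.44 kb from its start. Scores were 797 in Sox2, 1209 in Sox2BiD, 593 in Nr5a2 and 515 in Nr5a2BiD, with 251 bp between the summits. Sox2BiD was the highest of the 4 and Nr5a2BiD the lowest.

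The region nearest to Zbtb20, a zinc finger repressor of liver and neural development, lay 209 kb away (chr16:42665255-42668140) with summits 3 bp apart. Scores were 722, 898, 426 and 540, so both BiD libraries were above their native counterparts. In the Pinx1 region, whose sequence is given above, the native Sox2 score was 105 and the Sox2BiD score 763, while native Nr5a2 scored 601 and Nr5a2BiD 366. Summits were 58 bp apart, and the SOX word lay 24 bp from that of Sox2. In the Brinp3 region the native libraries were the lower ones for both factors, with 215 and 777 for the Sox2 forms and 272 and 539 for the Nr5a2 forms.

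The region nearest to A2m, the gene of the protease inhibitor alpha-2-macroglobulin, lay 74.8 kb from its start, and the 4 scores were 777, 866, 479 and 511. The printed words lay 117 and 166 bp from the Nr5a2 summit and 388 and 437 bp from the Sox2 summit. In the Astn1 region, in an intron of this neuronal migration gene, native Sox2 had no peak, and the other scores were 781, 583 and 746. It was the only 1 of the 12 without a native Sox2 peak.

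**Figure D5:**
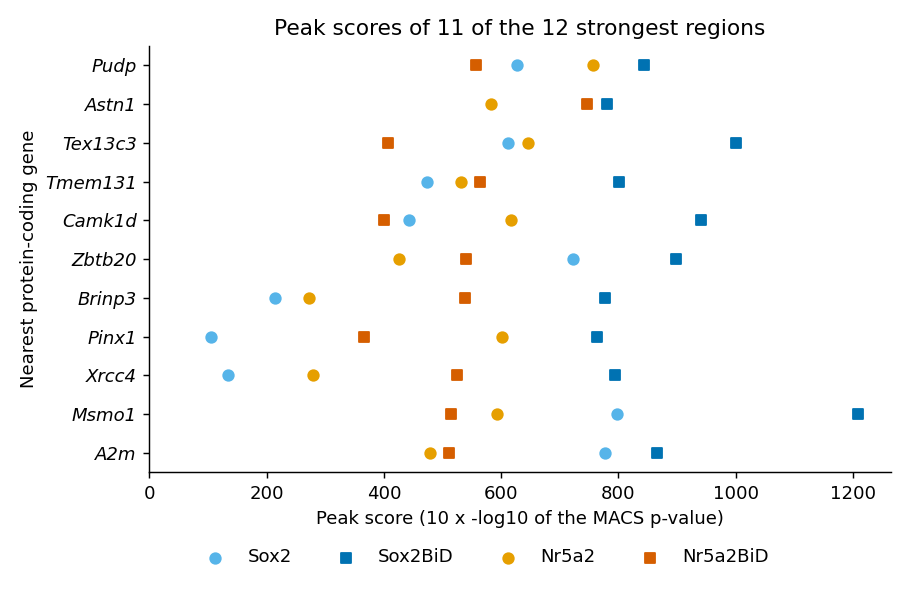
Peak scores (horizontal axis, 10 times the negative log10 of the caller's p-value, 1 library each) of 11 of the 12 strongest regions, named by the nearest protein-coding gene (vertical axis). Sox2BiD lies at 763 to 1209, above native Sox2 in each region that has a native Sox2 peak, and the 2 Nr5a2 libraries lie at 272 to 756 and 366 to 746.

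Among the other combinations of forms, the strongest region of native Sox2 alone with both Nr5a2 libraries was nearest to Rab28, 394 kb away. Its scores were 299 in Sox2, 252 in Nr5a2 and 276 in Nr5a2BiD. The strongest with Sox2BiD alone and native Nr5a2 alone was nearest to 1500009L16Rik, with scores of 652 and 339 and 165 bp between the summits. The strongest with the 2 BiD libraries alone was nearest to Sh2d4b, 287 kb away, with scores of 243 and 168. For the 2 native libraries alone it was in an intron of Ltbp1, which encodes a binding protein of latent TGF-beta, with scores of 175 and 156.

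The strongest 6 regions within 2 kb of the start of a protein-coding gene were those of Gm17581, Pipox, Vsir, Rxfp3, Hdac4 and Cela1. At Pipox, a peroxisomal oxidase of liver and kidney, the summit lay 164 bp from the start, and the scores were 458 in Sox2BiD, 499 in Nr5a2 and 367 in Nr5a2BiD, with no native Sox2 peak. At Cela1, a pancreatic elastase, it lay 299 bp from the start, in an intron of the gene, with scores of 327, 284 and 294. At Hdac4, a class II histone deacetylase, all 4 libraries had a peak, with 284 in Sox2, 132 in Sox2BiD, 594 in Nr5a2 and 452 in Nr5a2BiD, so native Sox2 was above Sox2BiD there.

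Genes were then taken by the number of regions near them. Of 21911 protein-coding genes, 7680 (35.1%) had the highest summit of at least 1 region within 50 kb of their start. Of the 131 genes in 8 lists, 56 (42.7%) did, and within 100 kb 85 genes (64.9%) did, beside 54.5% of all protein-coding genes. The lists are a description, and no list was tested against the rest.

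The genes with the most regions nearest to them were Cdh11 and Rybp with 10 each, Smad7 with 9, and Igsf11, Jarid2, Myc, Sox5 and Tenm3 with 8 each. In all, 5557 genes were nearest to at least 1 region and 104 to 5 or more. These counts have no background of all union regions beside them and are a description. Jarid2, Sox5 and Tenm3 had none within 50 kb, and their farthest regions lay at 383, 629 and 546 kb. The regions of Cdh11, a mesenchymal cadherin, reached 863 kb from its start. All 10 Cdh11 regions had a Sox2BiD peak and 7 a native Nr5a2 peak, with Sox2BiD scores of 51.9 to 798. The regions of Rybp, a subunit of Polycomb complexes, were closer, at 6.84 to 134 kb, and all 10 had a Sox2BiD and a native Nr5a2 peak, with Sox2BiD scores of 61.6 to 391 and Nr5a2 scores of 51.1 to 476. The 9 regions of Smad7, an inhibitor of TGF-beta signalling, lay at 7.99 to 164 kb, and 6 of them within 100 kb. At Myc, the proto-oncogene, all 8 had a Sox2BiD peak of 62.4 to 216, and none was within 50 kb. At Jarid2, a partner of Polycomb complex 2, Sox2BiD scores reached 792.

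Of 15 genes of liver and steroid tissues, 7 (46.7%) had a region within 50 kb. Cyp11a1, the enzyme that starts steroid synthesis from cholesterol, had 4. One lay in its intron 6.19 kb from the start (chr9:58010773-58013953), with scores of 136 in Sox2BiD, 413 in Nr5a2 and 376 in Nr5a2BiD, and another at 17.0 kb, with 166, 232 and 349. None of the 4 had a native Sox2 peak. Cyp7a1, the rate-limiting enzyme of bile acid synthesis, had 2. The intronic one had scores of 171 in Sox2BiD and 81.4 in native Nr5a2, and the other, 37.0 kb away, had 73.5, 270, 154 and 264 in Sox2, Sox2BiD, Nr5a2 and Nr5a2BiD. Scarb1, the HDL receptor, also had 2, with Sox2BiD scores of 370 and 54.3 and native Nr5a2 scores of 79.3 and 63.3.

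Of 20 pluripotency genes, 10 had a region within 50 kb. Dppa5a, Esrrb, Klf2, Lin28a, Nanog, Nr0b1, Pou5f1, Sall4 and Zfp42 had none. Nanog, Nr0b1, Pou5f1, Sall4 and Zfp42 also had none within 100 kb. The rule leaves out regions with a Nanog or Oct4 peak, so this does not show that Sox2 and Nr5a2 peaks were absent there. Tfcp2l1, a transcription factor of naive pluripotent cells, and Utf1 had 2 each and Dppa3 had 1. The Tfcp2l1 regions both lay in its introns. In the first, 23.0 kb from the start, Sox2BiD scored 555 and native Nr5a2 55.4, and in the second, 48.9 kb away, Sox2BiD scored 386, Nr5a2 128 and Nr5a2BiD 123. Strength at Tfcp2l1 was thus on the Sox2BiD side. At Sox2 itself 1 region lay 12.3 kb from the start, in an intron of Sox2ot (chr3:34637293-34639041), with scores of 378 in Sox2, 822 in Sox2BiD and 77.6 in native Nr5a2. Nr5a2 had none within 50 kb, and no region overlapped the coding sequence of Sox2 or Nr5a2, where reads of the delivered vector would map.

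Of 16 SOX family and neural genes, 6 had a region within 50 kb, and Neurog2, a proneural factor, and Sox4 had 2 each. Both Sox4 regions were led by Sox2BiD, with scores of 429 and 186, while their Nr5a2 peaks scored 56.8 to 70.3. Nes, the gene of the neural filament nestin, had 1 region, 11.9 kb away, with Sox2BiD at 51.7, Nr5a2 at 227 and Nr5a2BiD at 100.2.

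Of 20 signalling genes, 11 had a region, with 3 each at Nodal and Smad7 and 2 at Fgf2. At Nodal, a TGF-beta ligand of the early embryo, 1 region lay at the end of the gene with summits 38 bp apart, and its scores were 53.9 in Sox2, 414 in Sox2BiD, 88.3 in Nr5a2 and 86.7 in Nr5a2BiD. At Fgf2, a growth factor used by fibroblasts and pluripotent cells, the intronic region 30.2 kb from the start was led by Nr5a2, with 455 and 541 for its forms and 95.8 and 133 for those of Sox2. Of 14 genes of AP-1, TEAD and RUNX factors, 8 (57.1%) had a region, with 3 at Fosl2 and 2 each at Fosb and Fosl1. The Fosb region 6.86 kb from the start had scores of 296 in Sox2BiD, 366 in Nr5a2 and 373 in Nr5a2BiD.

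Of 10 epithelial genes, 3 had a region, and all 3 were claudins, the proteins of tight junctions: Cldn6 with 4, and Cldn3 and Cldn4 with 2 each, 1 of these shared between them. At Cldn6 the strongest Sox2BiD peak scored 687, with a native Nr5a2 peak of 64.0 and summits 51 bp apart. Cdh1 and Epcam had none within 50 kb. Of 19 mesenchymal and matrix genes, 5 (26.3%) had a region, with 2 each at Fn1 and Thy1, and Col1a1, Col1a2, Col3a1, Twist1 and Vim had none within 50 kb. Of 17 BAF subunit genes, 6 (35.3%) had a region, with 3 at Smarcc1, 2 at Bcl7c and 1 at Actl6a. The shares of the 8 lists ran from 26.3% to 57.1% around the 35.1% of all protein-coding genes.

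The cell type label was compared with promoter peaks of marker genes, which can show binding but not expression. Of 10 fibroblast genes, 6 to 9 had a peak within 2 kb of the gene start in the 4 libraries, and of 4 epithelial genes 0 to 2 did. Of 2 blood and 2 endothelial genes, 0 or 1 and 0 to 2 did.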

How the data were processed

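The deposited files are 8 peak lists, 1 per library, made by the authors from Flag CUT&Tag reads of MEFs. Per the study's methods and the submitters' processing notes, reads were trimmed with Trim Galore 0.6.4, aligned to mm10 with Bowtie2 2.4.5, handled with SAMtools 1.16.1 and called with MACS 1.4.2, and the methods speak of replicates merged before calling, whereas the study's reporting summary describes a single CUT&Tag experiment without biological replicates. No control library is named for the calling, and the read totals in that summary were not used to scale any value here. In the deposited lists the score is the negative log10 of the p-value from MACS, multiplied by 10, with a threshold of 50, and the summit height is a signal in whole tags that is not scaled for depth.

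All 661009 peaks were merged into 306466 regions where they shared at least 1 bp. The best peak of a factor in a region is the one with the highest score in either of its libraries. The highest summit of a region is that of the peak with the highest score percentile within its own library. Words were searched on both strands within 50 bp of the summit in the RefSeq sequence of GRCm38.p6, with flanks centred 500 bp to either side, and a match is a description, not a binding site. Genes came from GENCODE M21. Shares have exact Clopper-Pearson 95% intervals, differences of shares Newcombe intervals and ratios log-scale intervals. All of them cover counting error over regions only, since each group had 1 library, and no test over samples was made. Scripts ran in Python 3.11.15 with NumPy 2.4.6, pandas 2.3.3, SciPy 1.17.1 and matplotlib 3.10.9, and were tested on simulated data.

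The regions, gene lists and words were chosen with earlier results of these data known. Named are the 12 strongest regions, the 2 strongest in each of the 9 combinations of forms, the 6 strongest within 2 kb of a protein-coding gene start, the 3 genes of each list with the most regions within 50 kb, the 8 genes nearest to the most regions, and Sox2 and Nr5a2. Of the regions per combination the text gives a selection. The nearest gene and the scores of 1 of the 12 strongest regions are not reported here. Sequences were printed outside untranslated regions, and the distance bins, the sequences outside the 12 strongest regions, the search for joined words and the log2 ratios of forms were chosen after values were seen. Alternatives were stricter peaks, equal peak numbers, merged summits, each of the 4 Sox2 and Nr5a2 libraries left out, other windows, words, distances and start sites.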

Additional observations from a re-analysis of the deposited data

Results flagged for a closer look

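The forms of Sox2 and Nr5a2 stood in opposite directions in these regions. The log2 ratio of regions with the BiD form alone to regions with the native form alone was 4.14 for Sox2 (5386 and 306 regions) and -1.96 for Nr5a2 (721 and 2813 regions). It drew attention because the 1 pair of Sox2 libraries and the 1 pair of Nr5a2 libraries moved in opposite ways, and the difference was not tested, since each form had 1 library. Over all union regions with a Sox2 peak, 68733 had Sox2BiD alone and 7756 native Sox2 alone. Over all with an Nr5a2 peak, 10273 had Nr5a2BiD alone and 41498 native Nr5a2 alone. The opposite directions were thus not particular to the regions of Sox2 and Nr5a2. The peak lists differ in the same direction, with 58162 peaks for Sox2 and 120594 for Sox2BiD, and 108030 for Nr5a2 and 76217 for Nr5a2BiD. When each library was cut to its 50000 top-scoring peaks the log2 ratios in the regions of Sox2 and Nr5a2 were 0.86 and 0.35, both towards the BiD form.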

How the results depend on the processing

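Of 81 alternative values, 32 stayed within the counting error, or within 1.5 times for counts, 48 moved beyond it and 1 reversed. With scores of at least 100 there were 5064 regions, with 65.6% Sox2BiD alone, 34.2% native Nr5a2 alone, 25.8% with summits within 100 bp, 10.2% with the SOX word and 16.6% at transcript starts. With 50000 peaks per library there were 3288, with 35.5% Sox2BiD alone and 18.3% native Nr5a2 alone. With merged summits there were 5595, with 29.3% native Nr5a2 alone, 59.7% with close summits, 11.9% with NR5A and 7.60% with SOX words, 17.1% at transcript starts, and partner-word differences of 4.18 (NR5A) and 2.64 points (SOX). The log2 ratios of forms, chosen after seeing the data as were their alternatives, were 4.35 for Sox2 with scores of at least 100, 0.86 for Sox2 and 0.35 for Nr5a2 with 50000 peaks, where Nr5a2 reversed, and 3.30 and -1.05 with merged summits. Windows of 25 bp gave 6.86% NR5A and 4.76% SOX words and partner differences of 0.932 and 0.764 points, and windows of 100 bp gave 22.7%, 14.3%, 4.12 and 2.46. With the words TCAAGGTCA and CTTTGTT these were 2.76%, 13.9%, 0.247 and 1.75. At 500 bp 5.20% were at transcript starts, and 9.57% at protein-coding ones. Summits within 50 bp were found in 15.6%, and 85 list genes had a region within 100 kb. The causes were not tested.

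Leaving out each of the 4 Sox2 and Nr5a2 libraries in turn gave 3002 (without Sox2BiD) to 8143 regions. The share with Sox2BiD alone was taken only where an Nr5a2 library was left out, and was 60.7% to 64.4%. The share with native Nr5a2 alone was taken only where a Sox2 library was left out, and was 27.3% to 33.4%. Over all 4, 26.1% to 31.8% had summits within 100 bp, 13.2% to 16.2% NR5A words and 7.53% to 9.63% the SOX word. At transcript starts were 11.7% to 15.4%, and partner-word differences were 2.07 to 2.41 points (NR5A) and 1.17 to 1.55 points (SOX).

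No paired analysis was possible because each group had 1 library and no test was made. Peak calls were not adjusted for read depth, which per the study's reporting summary was higher in Sox2 than in Sox2BiD and in Nr5a2BiD than in Nr5a2, and the absence of a Nanog or Oct4 peak is the absence of a call.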

Other observations

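The joined word of the Igfbp2 sequence, an NR5A word whose last 2 bases open the SOX word, was searched for in all regions after that sequence had been seen. It occurred in 10 of the 8488 regions of Sox2 and Nr5a2 (0.118%), in 15 regions of Sox2 alone (0.0232%), in 21 regions of Nr5a2 alone (0.0314%) and in 11 regions with Nanog or Oct4 (0.0481%). The 10 include the Igfbp2 region, from which the joined word was taken. Within 50 bp of the highest summit it was present in 4 of the 8488 regions (0.0471%, 0.0128 to 0.121) and in 20 of all union regions (0.00653%). It was there in 3 regions of Sox2 alone (0.00464%, 0.000958 to 0.0136) and 9 of Nr5a2 alone (0.0135%, 0.00616 to 0.0256). With Nanog or Oct4 it was there in 2 (0.00875%, 0.00106 to 0.0316). The intervals of these sets overlapped that of the regions of Sox2 and Nr5a2. Regions of Sox2 and Nr5a2 are wider than those of 1 factor, and the part of width was not tested.

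In 3 of the 10 regions both summits lay within 50 bp of the joined word. Besides the region at Igfbp2, these were nearest to Inhba, which encodes a subunit of activin, with summits 30 bp apart and best scores of 506 for Sox2 and 61.3 for Nr5a2, and to Xylt1, a xylosyltransferase of proteoglycan synthesis, with summits 3 bp apart and a best Sox2 score of 136.

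Among the 93 regions with a gap of at most 50 bp between a SOX and an NR5A word, the most frequent single gap was found in 12. Gaps of 0 to 10 bp were found in 29 regions, 11 to 20 bp in 15 and 21 to 30 bp in 18. Gaps of 31 to 40 bp were found in 12 and 41 to 50 bp in 19. No expected count per gap was computed, so a preferred spacing was not tested. NR5A words were repeated in some regions, with 4 or more in 55 (0.648%) and 11 in the region with the most.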
